A study of Mus musculus with 28 samples.

Results

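Kinesins are motor proteins that move along microtubules or take them apart, and the genes of this family were followed through the neural stem cell niche of young and aged mice. Members were all genes whose symbol in the single-cell table is Kif followed by a number and, where present, a letter or a second number. There were 37 such genes among the 37974 of that table, and 26 of them had values in the tissue table of 36358 genes used here. By their known roles 11 were mitotic, 13 were transport motors, 6 belonged to the cilium and Hedgehog signalling, and 7 were of other or no single class. The rule used only the symbol.

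The study asked how neural stem and progenitor cells (NSC/NPCs) of the ependymal and subventricular zones (EZ-SEZ/SVZ), which line the lateral ventricle beside the striatum, change with age in C57BL/6 mice. Tissue of this region was sequenced in 3 samples of 3-week-old and 3 of 18-month-old mice. Single cells of 1-month-old and 24-month-old mice were freed with papain, sorted by size and complexity, and amplified with Smart-seq2, which reads whole transcripts. They were named Prom1+ (3 cells at 1 month and 3 at 24 months), Gfap+ (2 and 5) or Dlx2+/Dcx+ (5 and 4) from marker transcripts. No transgene, deletion or drug was involved, and no group shares a treatment. The young ages differ between the experiments, 3 weeks in the tissue and 1 month in the cells, as do the old ages of 18 and 24 months. No animal was named for any cell, so each subpopulation at each age counts as 1 sample and its cells were described without a test. The study's text can be read as separate mice for the tissue samples of an age, but no label names an animal, so p-values measure only the spread between these samples. The labels call the tissue samples bulk neural stem cells, whereas the study's methods describe dissected tissue.

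In a dividing cell, mitotic kinesins separate the spindle poles, move and align chromosomes, trim microtubule ends and close the cleavage furrow. Most of them are made late in the cell cycle and are broken down when the cell leaves mitosis, so resting and differentiated cells hold little of their RNA. Transport kinesins carry vesicles, mitochondria, RNA granules and cilium components towards the plus ends of microtubules, and neurons and oligodendrocytes depend on them through life. The ventricular niche contains both kinds of cell: stem cells and progenitors that divide, neuroblasts that divide and migrate, and ependymal cells, neurons and oligodendrocytes that no longer divide.

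Values are FPKM, a count of fragments divided by transcript length and by library size, as the authors deposited them. The tissue samples held an estimated 1.84e+07 to 2.23e+07 fragments, read from the steps between low values, an estimate that may be off by a factor of 2. The depth of each cell was not recovered from its FPKM values, and 4398 to 6626 genes per cell exceeded 1 FPKM. The Gfap+ cell of 1 month with replicate number 1 stood apart, with the fewest genes above 1 FPKM and the highest FPKM sum. A gene listed at 0 in a cell may be a failed estimate and not an absent transcript. The cells had been named from marker transcripts, so the levels of these markers are no independent check of the labels. Prom1 was at 1.49 to 56.6 FPKM in the Prom1+ cells, Gfap at 48.7 to 194 FPKM in the Gfap+ cells and Dlx2 at 270 to 1916 FPKM in the Dlx2+/Dcx+ cells. Prom1 also reached 6.29 FPKM in a Dlx2+/Dcx+ cell of 1 month, above the lowest Prom1+ cell. Outside their own cells Gfap was at most 0.33 FPKM and Dlx2 at most 2.79 FPKM. The Gfap+ cells also held oligodendrocyte transcripts. The summed level of 8 oligodendrocyte markers was 30370 to 65187 FPKM there and at most 347 FPKM in any other cell, with Mag at 924 to 4960 FPKM and Mog at 792 to 3251 FPKM in the Gfap+ cells.

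Mitotic kinesins were lower in the aged tissue. All 6 that had tissue values lay lower in each 18-month sample than in any 3-week sample. Of the 4 that were tested, 3 passed the limits of an unadjusted p under 0.05 and a log2 fold change past 1. Of the 12287 genes tested, 2.07% passed downwards and 1.83% upwards. The 4 tested members were lower without overlap between the ages, where 12.2% of all tested genes were lower and 20.9% higher at 18 months. Of these 4, Kif2c, Kif4 and Kif18b entered the test only through their 3-week values, so these counts are no support. The lower values may come from fewer cells of a dividing type or from less RNA per cell, and in tissue these cannot be told apart. Kif11, Kif15, Kif20a, Kif20b and Kif23 were not analysed in the tissue.

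Kif22 (ENSMUSG00000030677, chr7:127027729-127042471 on the minus strand of GRCm38) encodes a chromokinesin that binds chromosome arms and pushes them towards the spindle equator. It was at 2.28, 3.27 and 2.46 FPKM in the 18-month samples and at 6.81, 8.06 and 8.56 FPKM in the 3-week samples. Every aged sample was thus well below every young one, and the mean was 2.93-fold higher at 3 weeks. The log2 fold change of FPKM + 1 was -1.27 (SE 0.16), with an adjusted p of 0.0162 in limma over all genes tested. Kif22 was the only mitotic member that reached 1 FPKM in all 6 samples, so its test does not depend on the filter. Reads of a pseudogene copy, Kif22-ps, could be shared with it, as those of Kif4-ps could with Kif4, so both levels are uncertain to that extent.

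Kif18b (ENSMUSG00000051378, chr11:102905529-102925124 on the minus strand) encodes a kinesin that shortens the astral microtubules of the spindle. Its levels were 0.70, 0.54 and 0.62 FPKM at 18 months and 3.55, 3.19 and 3.73 FPKM at 3 weeks, a 5.64-fold higher mean in the young tissue. The log2 fold change was -1.47 (SE 0.11; limma, adjusted p = 0.00355). Kif2c (ENSMUSG00000028678, chr4:117159639-117182639 on the minus strand) encodes a depolymerase that removes wrongly attached microtubules at centromeres. It was at 0.85, 0.75 and 1.08 FPKM at 18 months and at 3.87, 3.01 and 2.18 FPKM at 3 weeks. Its log2 fold change was -1.07 (SE 0.19; limma, adjusted p = 0.0382), and without the 3-week sample of replicate number 1, its highest, it was -0.92 and did not pass the fold limit.

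Kif4, a chromokinesin of chromosome condensation and of the central spindle, was at 0.54, 0.67 and 0.71 FPKM in aged tissue and at 2.35, 2.07 and 1.36 FPKM in young tissue. Its log2 fold change of -0.82 (SE 0.16; limma, adjusted p = 0.0496) did not pass the fold limit on this scale, which compresses changes of genes near 1 FPKM, and it passed with a pseudocount of 0.1. Kif2c, Kif4 and Kif18b entered the test only through their 3-week values, so for these 3 a difference was built into the filter and their number is no support. By adjusted p under 0.05 alone 4 mitotic members were lower, against 2.42% of all genes lower and 2.51% higher.

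The lowest levels were those of Kif14 and Kif18a, which did not pass the filter. Kif14, which acts in cytokinesis, was at 0.083, 0.050 and 0.065 FPKM at 18 months and at 0.38, 0.29 and 0.26 FPKM at 3 weeks, and its lowest value stood for about 9 fragments. Kif18a, which damps chromosome movements at the spindle equator, was at 0.49, 0.63 and 0.44 FPKM at 18 months and at 1.07, 1.04 and 0.68 FPKM at 3 weeks. The young sample of replicate number 3 was close to the highest aged sample for Kif18a. Fitted without the filter, the log2 fold changes were -0.30 for Kif14 (adjusted p = 0.0427 in limma) and -0.34 for Kif18a (adjusted p = 0.244 in limma).

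**Figure D1:**
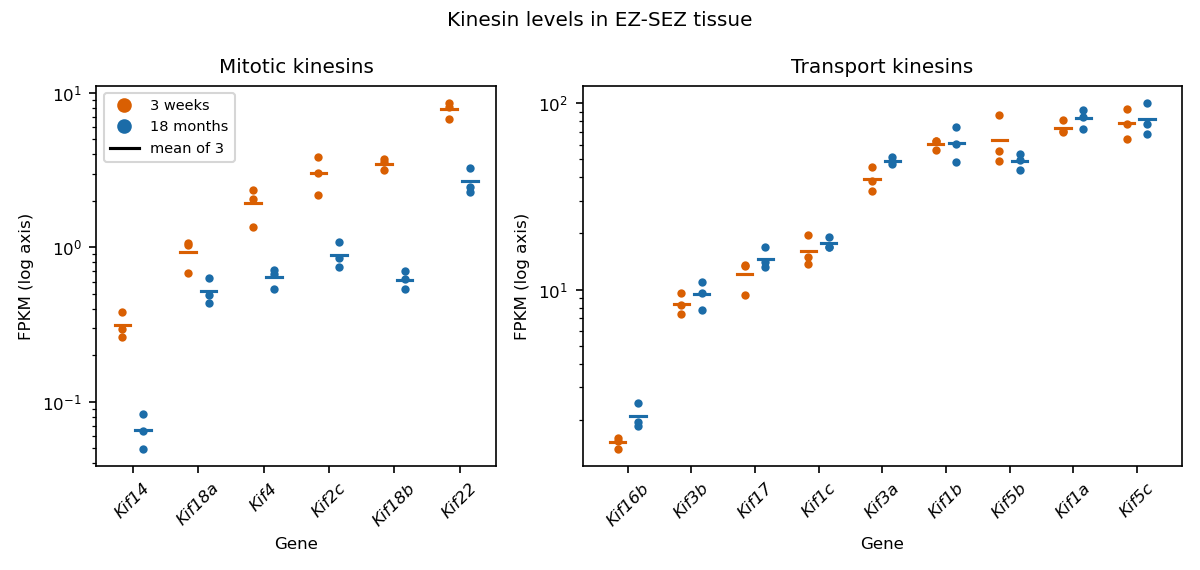
FPKM of each kinesin (log axis) in the 3 samples of 3 weeks (orange) and the 3 of 18 months (blue) of EZ-SEZ tissue, with the mean of each age as a line, for the 6 mitotic and the 9 transport kinesins with tissue values. All 6 mitotic kinesins are lower in each aged sample, for Kif22 between 2.28 and 3.27 FPKM against 6.81 to 8.56 FPKM, while the ages of most transport kinesins overlap.

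The stretches just before the transcription starts of these genes are shown because the mitotic members moved together and their windows shared short motifs. RefSeq windows on GRCm38.p6, from 250 bases before to 50 bases after the start, were matched for 31 of the 37 members, 10 of them mitotic and 10 transport. The letters TTTGAA, read on both strands, stood in 9 of the 10 mitotic windows, in 0 of the 10 transport windows and in 18.1% of 27025 windows of all genes. The 9 were Kif2c, Kif4, Kif11, Kif14, Kif15, Kif18b, Kif20b, Kif22 and Kif23. The letters CCAAT stood in 6 mitotic windows, 3 transport windows and 37.9% of all. The 6 also held TTTGAA, and 10.9% of all windows held CCAAT together with TTTGAA or TTTAAA. Cell cycle promoters are known to use both elements, the first named the cell cycle genes homology region, but a match of letters is only a description. In Kif4, Kif18b, Kif20b and Kif23 the match to TTTGAA lay after the start. TTTAAA stood in the windows of Kif2c and Kif14 and in 13.2% of all. TTCGCGC and GGCGGGAA, 2 forms of the E2F motif, were in 0 of the 10 mitotic windows and in 1.59% and 2.24% of all. Of the 10 transport windows 1, that of Kif16b, held TTCGCGC and 0 held GGCGGGAA. No match overlapped another.
In the lines that follow, capitals mark the letters of these first 2 motifs on either strand, and each stretch reads 5′ to 3′ on the strand of its gene and ends at the base before the start, except that the one of Kif22 ends 31 bases before it. TTTGAA of Kif18b, Kif22 and Kif23 lies outside these stretches. The stretches of Kif18b, Kif11, Kif23 and Kif1b lie upstream of all annotated transcripts of the gene. That of Kif2c lies inside the annotated gene but in no exon, and 21 bases of that of Kif22 lie in an exon of Kif22. Kif1b is the 1 transport motor shown, and it is among the 3 of 10 transport windows that held CCAAT, so it is not typical of them.
Kif22 (chr7:127042451-127042560, minus): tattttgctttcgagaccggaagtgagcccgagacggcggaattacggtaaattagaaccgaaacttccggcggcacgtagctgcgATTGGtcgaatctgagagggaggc
Kif18b (chr11:102925125-102925264, minus): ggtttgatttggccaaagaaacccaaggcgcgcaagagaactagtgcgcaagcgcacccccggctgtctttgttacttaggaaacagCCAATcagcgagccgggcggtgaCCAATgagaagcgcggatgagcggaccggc
Kif2c (chr4:117178773-117178912, minus): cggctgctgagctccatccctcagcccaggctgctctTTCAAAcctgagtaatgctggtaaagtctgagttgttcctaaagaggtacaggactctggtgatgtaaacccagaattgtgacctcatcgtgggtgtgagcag
Kif11 (chr19:37376242-37376381, plus): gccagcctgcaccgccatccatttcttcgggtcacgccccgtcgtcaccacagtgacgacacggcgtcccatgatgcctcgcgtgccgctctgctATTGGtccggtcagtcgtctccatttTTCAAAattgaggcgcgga
Kif23 (chr9:61946800-61946939, minus): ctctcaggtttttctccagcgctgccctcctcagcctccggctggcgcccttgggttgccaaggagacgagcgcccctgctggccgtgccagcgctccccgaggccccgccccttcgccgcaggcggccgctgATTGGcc
Kif1b (chr4:149307734-149307873, minus): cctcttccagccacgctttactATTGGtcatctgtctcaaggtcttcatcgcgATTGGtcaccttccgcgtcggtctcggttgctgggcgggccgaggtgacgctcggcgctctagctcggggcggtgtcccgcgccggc

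Transport kinesins were far more abundant in the tissue than mitotic ones and none passed the limits with age. Summed over the 9 with tissue values, they reached 347 to 388 FPKM at 18 months and 319 to 408 FPKM at 3 weeks, whereas the 6 mitotic members summed to 4.94 to 5.90 FPKM and 16.8 to 18.0 FPKM. Of the 9 tested, 0 were called and 0 had an adjusted p under 0.05 in limma, and 1 had an unadjusted p under 0.05. Their median log2 fold change was 0.15, beside 0.089 over all genes tested, and their range was -0.33 to 0.33. The median of the 4 tested mitotic members was -1.17, of which 3 had been admitted by the young values alone.

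The heavy chains of conventional kinesin showed no common direction. Kif5b, the form found in most cells, was at 53.7, 43.8 and 49.4 FPKM at 18 months and at 86.7, 55.3 and 49.2 FPKM at 3 weeks. One young sample set its higher mean, and the log2 fold change was -0.33 (SE 0.23; limma, adjusted p = 0.427). Kif5c, a neuronal form, was at 68.2, 77.8 and 99.9 FPKM at 18 months and at 92.7, 77.2 and 64.6 FPKM at 3 weeks. The ages overlapped fully, with a log2 fold change of 0.06 (SE 0.20; limma, adjusted p = 0.873).

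Kif3a, a subunit of the kinesin that builds cilia, was one of the transport members without overlap between the ages. Its levels were 47.0, 49.2 and 51.4 FPKM at 18 months and 45.3, 38.4 and 33.8 FPKM at 3 weeks. The gap between the ages was small beside the spread of the young samples, and the log2 fold change of 0.33 (SE 0.13) had an adjusted p of 0.205 in limma. Its partner Kif3b was at 7.77, 9.57 and 11.03 FPKM at 18 months and at 9.59, 8.25 and 7.38 FPKM at 3 weeks, with overlap. Kif16b, a motor of early endosomes, was at 1.85, 1.94 and 2.48 FPKM at 18 months and at 1.54, 1.60 and 1.40 FPKM at 3 weeks. It was the other transport member without overlap, so 2 of 9 were higher in this way, about the 20.9% of all genes tested, and it had a log2 fold change of 0.29 (SE 0.12; limma, adjusted p = 0.224). An antisense gene, Kif16bos, overlaps it, and the sources used here do not say that fragments were counted by strand.

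The remaining 4 transport members overlapped between ages. Kif1a, which carries precursors of synaptic vesicles, was at 84.6, 72.9 and 91.8 FPKM at 18 months and at 80.8, 70.4 and 70.6 FPKM at 3 weeks. Kif1b, a motor of mitochondria and vesicles, was at 74.6, 60.6 and 48.6 FPKM at 18 months and at 62.7, 55.8 and 62.8 FPKM at 3 weeks. Kif1c, which carries secretory vesicles, was at 19.2, 17.0 and 17.0 FPKM at 18 months and at 14.9, 13.7 and 19.6 FPKM at 3 weeks. Kif17, a dendritic motor, was at 13.2, 14.0 and 16.8 FPKM at 18 months and at 13.5, 13.6 and 9.31 FPKM at 3 weeks. Their log2 fold changes ran from 0.00018 (Kif1b) to 0.27 (Kif17) with adjusted p of at least 0.431 in limma. Kif3c, Kif5a, Kif13a and Kif13b were not analysed in the tissue.

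**Figure D2:**
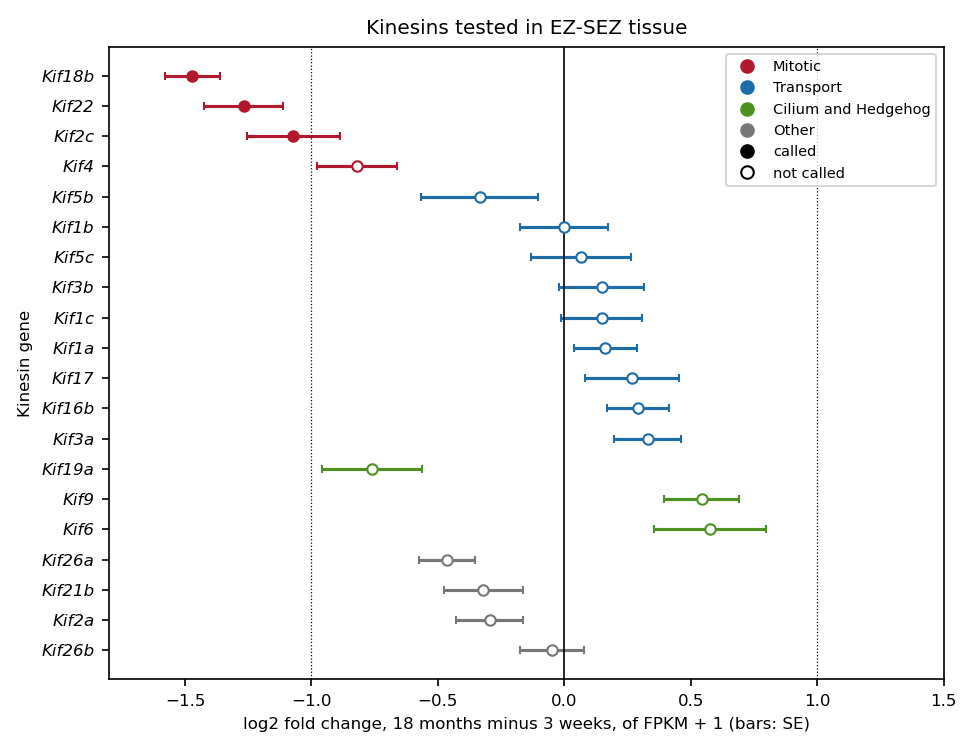
Log2 fold change of FPKM + 1, 18 months minus 3 weeks, with its SE, for the 20 kinesins tested in the tissue, grouped by class; filled points passed both limits and dotted lines mark the fold limit of 1. The mitotic members lie between -1.47 and -0.82 and the transport members between -0.33 and 0.33.

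Kinesins of the cilium did not share a direction and none was called. Kif9, a motor of motile cilia and flagella, was at 6.98, 8.12 and 8.43 FPKM at 18 months and at 4.23, 5.61 and 5.41 FPKM at 3 weeks. All aged samples were above all young ones, with a log2 fold change of 0.54 (SE 0.15; limma, adjusted p = 0.1003). Kif6 was at 5.56, 4.49 and 2.87 FPKM at 18 months and at 2.25, 2.34 and 2.88 FPKM at 3 weeks, with overlap and a log2 fold change of 0.58 (SE 0.22; limma, adjusted p = 0.189). Kif19a, which limits the length of motile cilia, was at 5.72, 5.78 and 5.93 FPKM at 18 months and at 13.2, 7.77 and 11.3 FPKM at 3 weeks. It lay opposite to Kif9, without overlap, with a log2 fold change of -0.76 (SE 0.20; limma, adjusted p = 0.0917). Kif24, which acts at centrioles, was at 0.35 to 0.59 FPKM at 18 months and at 0.82 to 0.94 FPKM at 3 weeks, and Kif7, of Hedgehog signalling, overlapped at 0.54 to 1.12 FPKM and 0.68 to 0.95 FPKM. Neither passed the filter. Of the ependymal markers beside them, Foxj1 differed by -0.05 on the log2 scale, Tmem212 by 0.73 and Cfap126 by 0.41, with 0 of 3 called, and the 3 summed to 107 to 125 FPKM at 18 months and 82.9 to 105 FPKM at 3 weeks. Their part in the result was not tested.

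The 4 other kinesins tested all had negative log2 fold changes and none was called. They were -0.46 for Kif26a, which lacks motor activity, -0.32 for Kif21b, -0.30 for Kif2a, a microtubule depolymerase of neurons, and -0.05 for Kif26b. Kif26a and Kif2a, 2 of the 4, were lower without overlap between ages, against 12.2% of all genes tested, with adjusted p of 0.0768 and 0.241 in limma. Kif12 was below 0.06 FPKM and Kif2b was listed at 0 in every tissue sample, and Kif21a and Kif27 were not analysed there.

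Proteins that work with mitotic kinesins had the same direction in the tissue, and those that work with transport kinesins did not. Of 16 spindle and cytokinesis partners 13 were tested, 10 were called lower, 0 higher, and 8 had an adjusted p under 0.05 in limma, where 2.07% of all genes tested were called lower, 1.83% higher, and 2.42% had such an adjusted p and were lower. Cenpe, Aurkb, Ect2 and Hmmr passed the filter only through their 3-week values, as 3 of the mitotic kinesins had, so a difference was built in for them and the count is no support. Of the 9 others 7 were called. The largest log2 fold change of FPKM + 1 was that of Tpx2, which loads Aurora A onto the spindle, from 7.93 to 10.1 FPKM at 3 weeks to 1.99 to 2.58 FPKM at 18 months, a log2 fold change of -1.64. Aurkb (-1.54) and Birc5 (-1.52), parts of the chromosomal passenger complex, followed, and Cdca8, Cenpe, Hmmr, Nusap1, Plk1, Prc1 and Racgap1 were the others called. The median of the 13 was -1.25. Kifc1, a minus-end mitotic motor outside the Kif naming rule, was at -0.52 (SE 0.21; limma, adjusted p = 0.216), and near-identical copies could share its reads. Of 16 cargo and accessory partners 11 were tested, 0 were called and 1 had an adjusted p under 0.05, against 2.51% of all genes higher at that limit. Hap1, an adaptor of kinesin and dynein, was at 46.5 to 46.7 FPKM at 18 months and at 22.1 to 29.6 FPKM at 3 weeks, a log2 fold change of 0.89 (limma, adjusted p = 0.0268). Klc3, a kinesin light chain, differed by 0.70 and Trak2, which links kinesin to mitochondria, by -0.74, with adjusted p of 0.0510 and 0.387 in limma. The median of the 11 was 0.084. Of 10 subunits of dynein and its activator dynactin 7 were tested, and likewise 0 were called and 1 had an adjusted p under 0.05; Dync1i1, an intermediate chain, had a log2 fold change of 0.64 with an adjusted p of 0.0469 in limma, followed by Dync2h1 (0.39) and the dynactin subunit Dctn1 (0.34).

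Markers of some cells that the tissue contains moved beside the mitotic kinesins, and those of others did not. Of 5 cycling markers 4 were tested and 4 called lower, against 2.07% of all genes tested, and they summed to 12.1 to 14.5 FPKM at 18 months and 41.3 to 48.3 FPKM at 3 weeks. Of 8 neuroblast markers 6 were tested, 2 were called lower (Dlx1 and Dlx2) against the same 2.07%, and the sums were 201 to 220 FPKM and 340 to 378 FPKM. Of the 6, 5 had negative log2 fold changes, with Sox11 at only -0.12, and Sp9 was at 0.75. Among 5 tested markers of active neural stem cells 1 was called lower. The neuron, astrocyte, microglia and endothelial lists had 0 called among 7, 3, 4 and 3 tested. Of 8 oligodendrocyte markers 7 had values, and their sums were 3571 to 4235 FPKM and 19243 to 21277 FPKM. Their part in the lower mitotic kinesins was not tested.

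In the single cells, mitotic kinesins were low in all Gfap+ cells and high in all Prom1+ cells and in 7 of the 9 Dlx2+/Dcx+ cells. All 11 exceeded 1 FPKM in at least 3 cells. Summed over the 11, the lowest, median and highest cell held 367, 861 and 1225 FPKM among the 6 Prom1+ cells, 3.39, 1140 and 2250 FPKM among the 9 Dlx2+/Dcx+ cells, and 0, 7.99 and 19.5 FPKM among the 7 Gfap+ cells. Every Prom1+ cell lay above every Gfap+ cell in this sum, and so did all Dlx2+/Dcx+ cells but the 24-month cell of replicate number 4. The sum of the 24-month cell of replicate number 2 was nearly all Kif22, at 95.8 FPKM. By the mean log2(FPKM + 1) over the 11, this cell, at 0.95, and that of replicate number 4, at 0.34, lay within the Gfap+ range of 0 to 1.07, and the other 7 Dlx2+/Dcx+ cells lay above it. For Kif11, Kif15, Kif22 and Kif23, 4 of the 11, each Prom1+ cell was above each Gfap+ cell, a pattern held by 1.91% of the 11332 genes above 1 FPKM in at least 3 cells. None of the 10 expressed transport kinesins had it. The Dlx2+/Dcx+ cells overlapped with the Gfap+ cells for every mitotic and transport member, where 1.01% of all genes were higher without overlap. As a share of all FPKM of a cell, the mitotic kinesins made up 0.0352% to 0.117% in Prom1+ cells and at most 0.00137% in Gfap+ cells.

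Kif11, which slides spindle poles apart, was at 111, 151 and 203 FPKM in the Prom1+ cells of 1 month and at 46.3, 84.7 and 58.7 FPKM in those of 24 months. Gfap+ cells held 0 to 1.92 FPKM. Young Dlx2+/Dcx+ cells held 149, 130, 317, 333 and 620 FPKM of Kif11, and aged ones held 267, 0.89, 158 and 0.44 FPKM. Of the 4 aged Dlx2+/Dcx+ cells, 2 lay in the young range and 2 near 0. Kif23, which bundles the central spindle for cytokinesis, was at 92.8, 130, 360, 569 and 586 FPKM in Dlx2+/Dcx+ cells of 1 month and at 0.28, 0.66, 2.39 and 0.69 FPKM in those of 24 months. No aged cell of this subpopulation came near a young one for Kif23, although it stood at 184, 4.02 and 42.2 FPKM in the Prom1+ cells of 24 months. Kif22 was the most abundant member of the class in the Prom1+ cells, at 560, 205 and 397 FPKM at 1 month and at 447, 161 and 178 FPKM at 24 months.

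The members of the class did not all appear in the same cells. Kif20a, a motor of late mitosis, was above 10 FPKM in 6 of the 22 cells and listed at 0 in 11. Kif14 exceeded 1 FPKM in 8 cells and so did Kif18b in 8, 5 of them Prom1+. Kif18a was at 160 FPKM in 1 Dlx2+/Dcx+ cell of 1 month and at 0.24 and 0.51 FPKM in 2 others of that group. Between 7 and 11 of the 11 members exceeded 1 FPKM in a Prom1+ cell, 8 to 10 in a young and 1 to 9 in an aged Dlx2+/Dcx+ cell, and 0 to 5 in a Gfap+ cell.

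**Figure D3:**
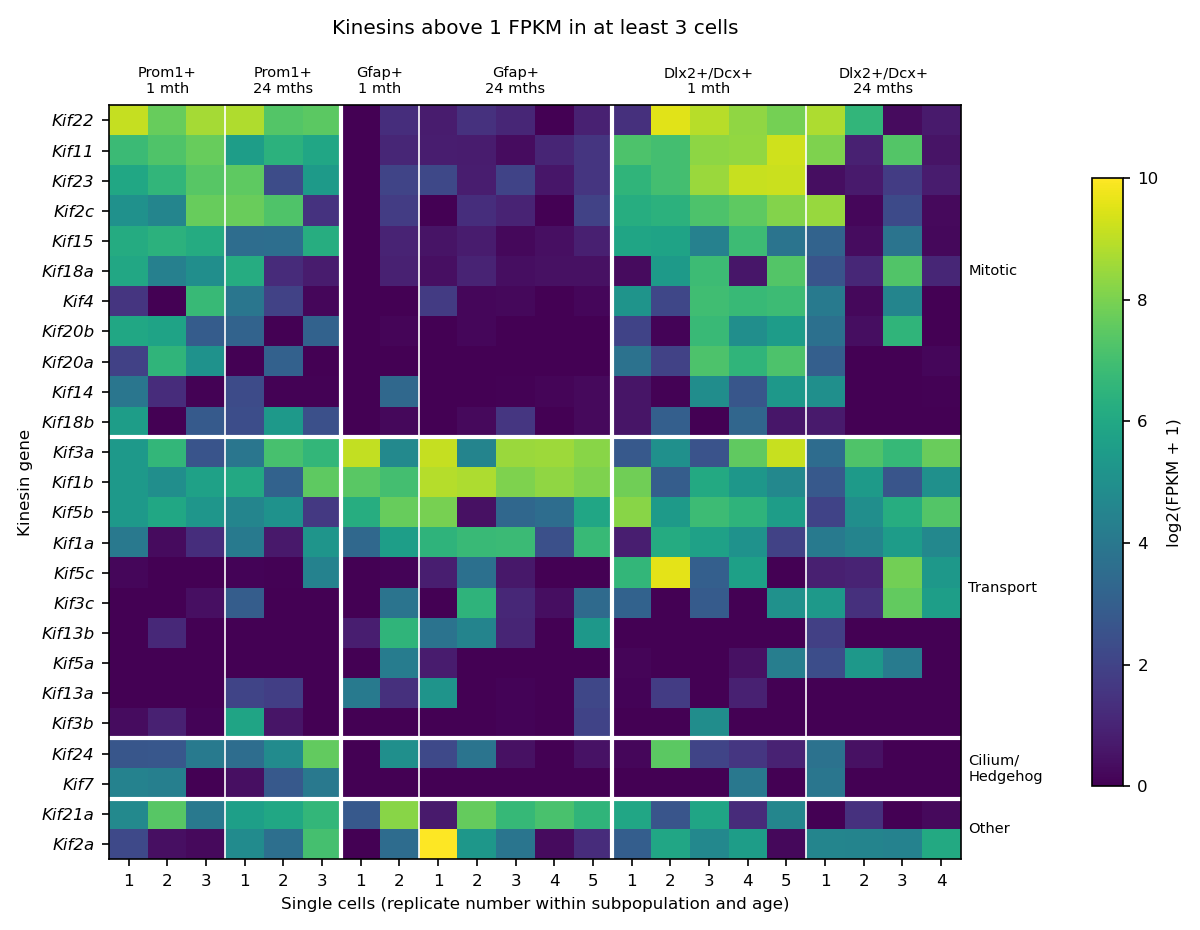
Log2(FPKM + 1) of the 25 kinesins above 1 FPKM in at least 3 cells (rows, by class) in each of the 22 cells (columns, by subpopulation and age). The mitotic block is dark across the 7 Gfap+ cells, at most 9.31 FPKM for any gene there, and in the aged Dlx2+/Dcx+ cells of replicate numbers 2 and 4 apart from Kif22 at 95.8 FPKM.

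Transport kinesins were spread over all cells, and their summed level was higher in Gfap+ than in Prom1+ cells. Their sum was 95.5, 181 and 339 FPKM (lowest, median and highest) in Prom1+ cells, 85.2, 510 and 916 FPKM in Dlx2+/Dcx+ cells and 529, 750 and 1418 FPKM in Gfap+ cells. Prom1+ and Gfap+ cells did not overlap in this sum, nor in its share of all FPKM, 0.00909% to 0.0325% against 0.0371% to 0.0828%. In Dlx2+/Dcx+ cells the share was 0.00981% to 0.0830%, with a median of 0.0433% beside 0.0453% in Gfap+ cells, so by share these subpopulations overlapped fully. By the mean log2(FPKM + 1) over the 10 expressed members Prom1+ cells, at 1.53 to 2.95, and Gfap+ cells, at 2.32 to 4.30, also overlapped. No single transport member had each Gfap+ cell above each Prom1+ cell or above each Dlx2+/Dcx+ cell, patterns shown by 2.53% and 2.06% of all genes. Kif1b was at 129, 266 and 475 FPKM (lowest, median and highest) in Gfap+ cells, at 7.80, 46.4 and 181 FPKM in Prom1+ cells and at 5.23, 31.1 and 224 FPKM in Dlx2+/Dcx+ cells. The oligodendrocyte markers given above were high in the same cells, and their part in this was not tested.

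Kif3a was at 21.6 to 560 FPKM in Gfap+ cells, 5.09 to 134 FPKM in Prom1+ cells and 4.87 to 578 FPKM in Dlx2+/Dcx+ cells, whereas its partner Kif3b was listed at 0 in 14 of the 22 cells. Kif3c, which can take the place of Kif3b, was at 41.6, 1.63, 190 and 47.2 FPKM in the aged Dlx2+/Dcx+ cells. Kif5c was highest in Dlx2+/Dcx+ cells, at 762 FPKM in 1 young cell and 234 FPKM in 1 aged cell, yet listed at 0 in another young one, and it was at most 0.13 FPKM in 5 of the 6 Prom1+ cells. Kif5a was above 1 FPKM in 4 Dlx2+/Dcx+ cells and 1 Gfap+ cell. Kif13b, a motor that also acts at the plasma membrane, was above 10 FPKM in 4 of the 7 Gfap+ cells and at most 2.69 FPKM outside them. Kif1a and Kif5b were found in all 22 cells at 0.24 to 113 FPKM and 0.36 to 296 FPKM. Kif13a exceeded 1 FPKM in 7 cells, Kif1c in 2 and Kif16b in 1.

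Outside these classes, Kif21a, which restrains microtubule growth, was at 15.6 to 170 FPKM in every Prom1+ cell and at most 1.69 FPKM in the 4 aged Dlx2+/Dcx+ cells. Kif2a was at 1015 FPKM in 1 Gfap+ cell of 24 months, the highest value of any kinesin in any cell, and at 0.24 to 38.6 FPKM in the other 4 of that group. Opposite to the tissue, its mean log2(FPKM + 1) was higher at 24 months, by 4.22 in Prom1+, 2.39 in Gfap+ and 1.02 in Dlx2+/Dcx+ cells. In Prom1+ cells the ages did not overlap, at 0.20 to 3.61 FPKM and 11.5 to 132 FPKM, as for 442 of 11332 genes higher in this way. Kif24 was at 5.41 to 194 FPKM in every Prom1+ cell and at 178 FPKM in 1 young Dlx2+/Dcx+ cell. Kif7 exceeded 1 FPKM in 6 cells, 4 of them Prom1+. Kif26a was at 33.6 FPKM in 1 young and 5.61 FPKM in 1 aged Dlx2+/Dcx+ cell, and Kif21b reached 9.10 FPKM in 1 young one. Kif6, Kif9, Kif12, Kif17, Kif19a, Kif26b, Kif27 and Kif2b were listed at 0 in all 22 cells, although Kif6, Kif9, Kif17 and Kif19a were at 2.25 FPKM or more in every tissue sample. The tissue and cell values were normalized separately. The 6 ependymal markers were listed at 0 in all Prom1+ cells and summed to at most 8.70 FPKM in any cell.

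Between ages the mitotic kinesins were lower in aged Prom1+ and Dlx2+/Dcx+ cells, as a description of these cells. In Dlx2+/Dcx+ cells the mean log2(FPKM + 1) of all 11 members was lower by more than 1 at 24 months, where 27.1% of all genes were lower by that much and 16.6% higher. The mean difference of the 11 was -3.18, beside -0.26 over all genes, and the largest were those of Kif23 (-7.18), Kif20a (-4.55) and Kif2c (-4.32). Kif15 and Kif23, 2 of the 11, were lower without overlap between ages, as were 1.08% of all genes, and the gap for Kif15 was small (13.4 FPKM in the highest aged and 13.5 FPKM in the lowest young cell). The mean over the 11 members was 3.61, 4.41, 6.36, 5.92 and 6.48 in the young cells and 4.36, 0.95, 3.07 and 0.34 in the aged cells on the log2 scale, so the aged cell of replicate number 1 lay within the young range. Leaving out each cell in turn left 8 to 11 members past 1. The aged cells also had fewer genes above 1 FPKM, 5081 to 5304 beside 5278 to 6286 in the young cells. The part of this in the difference was not tested. Top2a, a cycling marker, was at 1043, 23.3, 1368 and 43.4 FPKM in the 4 aged cells in the same order, and at 611 to 1471 FPKM in the young ones. The 5 cycling markers summed to 1517 to 3719 FPKM in the young and 44.6 to 1777 FPKM in the aged cells, and 8 neuroblast markers to 1679 to 5790 FPKM and 1870 to 3399 FPKM. The sum of 5 astrocyte markers was also lower in the aged cells without overlap, at 20.3 to 579 FPKM in the young and 0.0747 to 12.9 FPKM in the aged cells. Of the 5, 1 to 3 exceeded 1 FPKM in a young and 0 to 1 in an aged cell. The sum of 5 markers of active neural stem cells overlapped, at 119 to 402 FPKM (median 269) in the young and 14.7 to 372 FPKM (median 58.1) in the aged cells. Their part in the difference was not tested.

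In Prom1+ cells 6 of the 11 mitotic members were lower by more than 1 at 24 months and 0 higher, where 24.04% of all genes were lower by that much and 22.04% higher. The mean difference was -1.39, beside -0.047 over all genes. The 6 were Kif11, Kif15, Kif18a, Kif20a, Kif20b and Kif23, and Kif11, 1 of the 11, was lower without overlap between ages, as were 4.10% of all genes. Kif18b was the only member with a positive difference, of 0.60. Per cell, the class mean was 5.28, 4.59 and 5.47 at 1 month and 4.65, 3.52 and 3.01 at 24 months on the log2 scale. The highest aged cell, of replicate number 1, was just above the lowest young one, and without it 10 members were lower by more than 1. Up to 2 members were higher by more than 1 when a cell was left out, 2 without the aged cell of replicate number 3. The 5 cycling markers summed to 1249 to 2034 FPKM in the young and 486 to 1194 FPKM in the aged cells, and their part in the difference was not tested.

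In Gfap+ cells, where the class was near the floor, the mean difference was 0.019, and 1 member, Kif14, was lower by more than 1, where 19.6% of all genes were lower by that much and 29.6% higher. There were only 2 young Gfap+ cells, and in the one that stood apart all 11 mitotic members were listed at 0. Without it the mean difference was -0.52, and without the other young cell it was 0.55.

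Transport kinesins did not follow the mitotic ones between ages. Their mean difference was 0.58 in Prom1+ cells, -0.15 in Gfap+ cells and 0.13 in Dlx2+/Dcx+ cells. With 1 cell left out the difference was 0.33 to 0.88 in Prom1+ cells, but its sign turned in the others. In Gfap+ cells it ran from -0.65 to 0.35, positive without the young cell of replicate number 2 (0.35) or the aged one of replicate number 4 (0.14), and in Dlx2+/Dcx+ cells from -0.15, without the aged cell of replicate number 3, to 0.44. In Prom1+ cells 5 of the 10 expressed members were higher by more than 1 and 1 lower, against 22.04% and 24.04% of all genes. The 5 were Kif13a, Kif1a, Kif3a, Kif3b and Kif5c, and Kif5b was lower. Without the aged cell of replicate number 1, or without that of replicate number 3, the higher ones numbered 3. In Gfap+ cells 3 were lower and 2 higher, against 19.6% and 29.6% of all genes, and 4 were higher without the young cell of replicate number 2. In Dlx2+/Dcx+ cells 3 were lower and 2 higher, near the 27.1% and 16.6% of all genes. These counts were 0 lower without the aged cell of replicate number 1, 1 lower without the young cell of replicate number 1, and 4 higher without the young cell of replicate number 4. Kif5b was lower at 24 months in all 3 subpopulations, with differences of -1.75 in Prom1+, -2.70 in Gfap+ and -1.40 in Dlx2+/Dcx+ cells on the log2 scale. Each of these differences leaned on 1 low aged cell. Kif5b was at 2.16 FPKM in that of Prom1+ (replicate number 3), 0.36 FPKM in that of Gfap+ (replicate number 2) and 3.01 FPKM in that of Dlx2+/Dcx+ (replicate number 1). Young and aged cells overlapped except in Prom1+ cells, in which 4.10% of all genes were lower without overlap and Kif5b was at 40.2, 61.6 and 36.7 FPKM at 1 month and at 22.7, 33.2 and 2.16 FPKM at 24 months. Kif1b was higher without overlap in aged Gfap+ cells, as were 2.80% of all genes, at 173 and 129 FPKM at 1 month and at 266 to 475 FPKM at 24 months, a difference of 1.19. In Dlx2+/Dcx+ cells the differences were 2.78 for Kif3c, 1.99 for Kif5a, -1.38 for Kif1b and -1.22 for Kif5c, each with overlap between the ages.

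**Figure D4:**
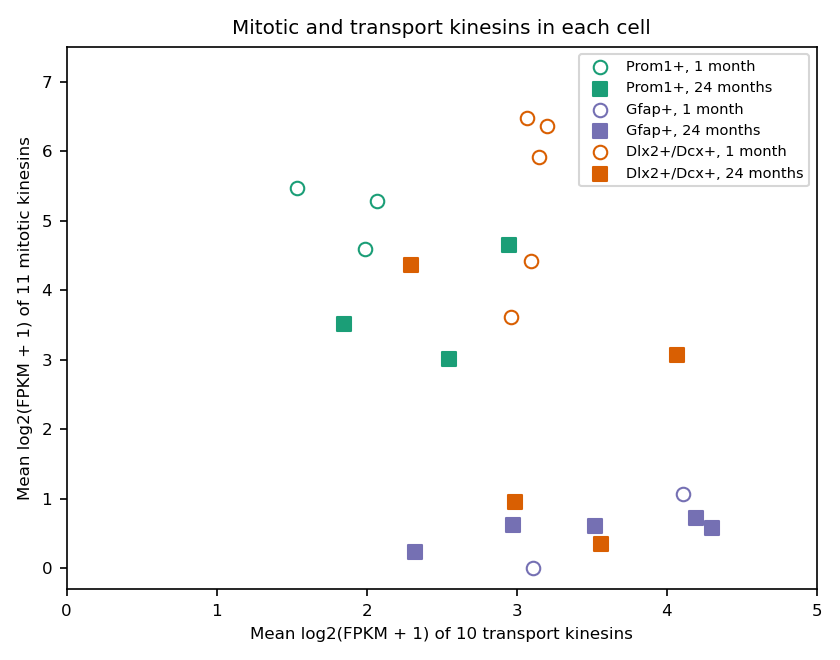
Mean log2(FPKM + 1) of the 11 mitotic kinesins against that of the 10 transport kinesins in each cell, by subpopulation (colour) and age (open circles 1 month, filled squares 24 months). Gfap+ cells lie at 0 to 1.07 on the mitotic axis, Prom1+ cells at 3.01 to 5.47, and the 4 aged Dlx2+/Dcx+ cells spread from 0.34 to 4.36.

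Mitotic kinesins varied together across cells more than transport kinesins, as a description. Over the 22 cells the median Pearson correlation of log2(FPKM + 1) was 0.59 over the 55 pairs of mitotic members, 0.070 over the 45 pairs of transport members, -0.20 between the classes and -0.005 over all expressed genes. These points share subpopulation, age and library, and the Gfap+ cells are low for the whole mitotic class. Within the 15 Prom1+ and Dlx2+/Dcx+ cells the medians were 0.44, -0.011, -0.044 and -0.009. Within single subpopulations the mitotic median was 0.55 in the 9 Dlx2+/Dcx+ cells, 0.40 in the 7 Gfap+ cells and 0.23 in the 6 Prom1+ cells. The Gfap+ median covers only 45 pairs of 10 members, as Kif20a was listed at 0 in all 7 cells. The class was near the floor in these cells and 1 of them held all 11 members at 0, so their median says little. Kif11 followed the mean of the other mitotic members most closely, with r = 0.94 over 22 cells and 0.86 over the 15, and Kif18b least, with 0.40 and 0.18. The genes outside the family most like the mean of the mitotic members over the 22 cells were Cenpf (r = 0.95), Prc1 (0.94), Ube2c (0.94), Cdca8 (0.94) and Ect2 (0.91), and over the 15 cells these 5 lay between 0.82 and 0.92. Prc1, Cdca8 and Ect2 also stand in the list of spindle partners.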

How the data were processed

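EZ-SEZ tissue (6 samples) and 22 single SVZ cells of C57BL/6 mice had been sequenced on an Illumina platform. The submitters' processing notes name GRCm38, HISAT2, StringTie and featureCounts, and their versions are not given in the sources used here. The authors deposited both tables as FPKM per gene, and the depth of each cell was not recovered from these values and is not used here. The authors' own comparison columns in the tissue table (fold changes and p-values) were not used. The authors used DESeq2 on counts for their own comparison; the deposited values are not counts, so a count test was not run. Tissue ages were compared with limma 3.58.1 (R 4.3.3, trend, two-sided) on log2(FPKM + 1), over 12287 genes at 1 FPKM or more in at least 3 of 6 samples, with age as the only term and Benjamini-Hochberg adjustment. Called genes had an unadjusted p under 0.05 and a log2 fold change past 1. Fold changes on this scale understate changes of low genes. Cells had no test: differences are of mean log2(FPKM + 1), over 11332 genes above 1 FPKM in at least 3 cells. Scripts were tested on simulated data. All kinesins of the rule are named. The members and lists were chosen with earlier results of these data known. Gene positions came from GENCODE M21 and promoter windows from RefSeq, where 4 members had more than 1 window and the first was used. For 76.1% of 20595 windows checked, the first bases after the start stood in a GENCODE transcript of the same gene. Alternatives covered the pseudocount, filter, scaling, the replicate block and each sample left out; those with the genes tested in all 6 samples, and the counts of members past 1 in cells, were chosen after seeing the data. Calls of single oligodendrocyte markers in the tissue are not reported here.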

Additional observations from a re-analysis of the deposited data

Results flagged for a closer look

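Of 79 groups and measures of kinesins with 4 to 10 samples, 22 held a cell whose gap to the nearest other cell was large beside the range of its group (Dixon's ratio, 95% limit). Chance flags about 1 in 20, and in groups with most cells at 0 a single detected transcript is enough. All values are log2(FPKM + 1).

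In the aged Dlx2+/Dcx+ cells 6 of the 7 were in the cell of replicate number 1: Kif14 at 4.96, Kif20a at 3.02 and Kif18b at 0.71 among the mitotic members, Kif7 at 3.92 and Kif24 at 3.78 among those of the cilium and Hedgehog signalling, and the transport motor Kif13b at 1.88. The other was Kif2a at 6.08 in the cell of replicate number 4.

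In the young Dlx2+/Dcx+ cells 5 were found in 5 cells. Kif22 was low at 1.39 in the cell of replicate number 1, while Kif24 stood at 7.49 (replicate number 2), Kif3b at 4.91 (replicate number 3), Kif7 at 4.01 (replicate number 4) and Kif5a at 4.28 (replicate number 5).

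In the aged Gfap+ cells there were 10. Low values were those of Kif21a at 0.74 (replicate number 1), Kif3a at 4.50 (replicate number 2) and Kif1a at 2.45 (replicate number 4). High values of mitotic members were small, with Kif4 at 1.75 (replicate number 1), Kif18b at 1.60 (replicate number 3), and Kif18a at 0.99 and Kif20b at 0.16 (replicate number 2). Among transport motors Kif5c stood at 3.69 (replicate number 2), Kif3b at 2.03 (replicate number 5) and Kif5a at 0.77 (replicate number 1).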

How the results depend on the processing

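Of 556 values under other settings, 514 kept their direction and side of the limits or moved within the stated margin. The median log2 fold change of tested mitotic kinesins was -1.58 with a pseudocount of 0.1, -0.95 without the filter and -1.42 with TPM scaling. Kif4 became called with a pseudocount of 0.1 (-1.43) and with TPM scaling (-1.19). Leaving out each tissue sample gave 1 to 3 kinesins called, all mitotic, with 1 without the 3-week sample of replicate number 1, where Kif2c was at -0.92. Kif18b and Kif4 then failed the filter without any 3-week sample and had no value. With the genes tested in all 6 samples, chosen after seeing the data, 2 to 3 were called and Kif18b was at -1.52 to -1.43.

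Kif1b, near 0, reversed with a pseudocount of 0.1 (-0.00011), with quantile normalization (-0.040) and with samples left out (-0.15 to 0.15, with -0.055 and -0.0028 among them). Kif26b (-0.14 to 0.014, once 0.00042) and Kif5c (-0.086 to 0.19, once -0.063) reversed with samples left out; the cause was not tested. In Gfap+ cells the mitotic difference was 0.45 with a pseudocount of 0.1 and -0.52 to 0.55 with cells left out.

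Equal replicate numbers did not pair the tissue samples (correlations of deviations -0.096, -0.011 and -0.098). With the replicate block 3 kinesins were called, all 3 mitotic, their median was -1.17, and no call changed. Among the mitotic members depth limits Kif14 most, at about 9 fragments in its lowest sample.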
